A study of Mus musculus with 8 samples.

Results

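The subunits of respiratory complexes II, III, IV and V that are encoded in the nucleus were followed in immortalised mouse skin fibroblasts kept at high or at low oxygen. Members were all rows of the deposited RNA table named Sdha, Sdhb, Sdhc, Sdhd or Cyc1, and all rows whose name starts with Uqcr, Atp5, Cox5, Cox6, Cox7 or Cox8. This rule uses names only and found 44 of 17091 rows: 4 for complex II, 9 for complex III, 14 for complex IV and 17 for complex V. WT cells are of C57BL/6 mice, and the cells named KO are of mice with the genotype mir210lox/lox. Cre recombinase cuts DNA between lox sites, but no Cre is named in the labels, so KO stands here for the group's name alone. Each genotype was cultured for 24 hours in 21% oxygen (normoxia) and in 1% oxygen (hypoxia), and each of these 4 groups holds 2 libraries. Nothing in the labels tells whether the paired libraries of a group are separate cultures or repeats of a single one, and p values therefore cover the spread between libraries only, which may be technical.

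Complex II (succinate dehydrogenase) passes electrons from succinate to coenzyme Q, complex III passes them on to cytochrome c, and complex IV (cytochrome c oxidase) hands them to oxygen. Complexes III and IV pump protons across the inner mitochondrial membrane, and complex V (ATP synthase) uses the returning protons to make ATP. Hypoxia is known to shift cells from respiration towards glycolysis through the transcription factor HIF. Several subunits of complex IV exist in ubiquitous forms and in forms of heart, skeletal muscle or testis, and the c subunit of ATP synthase is encoded by several genes whose mature protein is the same.

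The genes of the c subunit are shown first, because their sequences bear on how far their rows can be read. The lines give the last 60 coding bases before the stop codon of each gene and the matching bases of the pseudogenes Gm10175 and Gm10231, 5′ to 3′ from GENCODE vM21 transcripts (build GRCm38), with each base that differs from Atp5g2 in capitals.
Atp5g2: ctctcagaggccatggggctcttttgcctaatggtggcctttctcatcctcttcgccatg
Gm10175: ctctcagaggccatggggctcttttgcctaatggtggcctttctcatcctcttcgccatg
Gm10231: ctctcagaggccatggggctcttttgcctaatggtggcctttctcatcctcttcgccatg
Atp5g1: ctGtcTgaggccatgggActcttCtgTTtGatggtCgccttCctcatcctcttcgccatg
Atp5g3: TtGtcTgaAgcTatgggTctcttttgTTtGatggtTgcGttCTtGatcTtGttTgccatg
The Atp5g2 gene lies at chr15:102662864-102672352, Atp5g1 at chr11:96068852-96075670 and Atp5g3 at chr2:73908447-73911326, all on the minus strand. Both, annotated as processed pseudogenes, at chr7:23946646-23947290 and chr17:5816200-5816640, differ from Atp5g2 at 0 of the 60 bases, whereas Atp5g1 differs at 9 and Atp5g3 at 17.

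Promoters are shown because nuclear respiratory genes are known as targets of NRF1 and of the ETS factor GABP, and HIF is the factor of the low-oxygen response. For each complex the line gives a member with the most kinds of NRF1, ETS or YY1 motif among those with a single listed promoter, from 130 bases before to 20 bases after the start site, on the gene's strand; sequences are from RefSeq (build GRCm38.p6), and capitals mark the NRF1 letters GCGCATGCG and the ETS letters CCGGAAG on either strand (in Atp5k the NRF1 letters overlap on both strands).
Sdhb: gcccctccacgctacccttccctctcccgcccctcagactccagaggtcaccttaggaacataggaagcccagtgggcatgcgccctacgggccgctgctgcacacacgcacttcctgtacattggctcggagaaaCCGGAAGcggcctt
Uqcr11: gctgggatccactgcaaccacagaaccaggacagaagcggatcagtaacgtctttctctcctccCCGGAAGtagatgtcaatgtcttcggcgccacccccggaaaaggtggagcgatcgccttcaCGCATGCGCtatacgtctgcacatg
Cox6a1: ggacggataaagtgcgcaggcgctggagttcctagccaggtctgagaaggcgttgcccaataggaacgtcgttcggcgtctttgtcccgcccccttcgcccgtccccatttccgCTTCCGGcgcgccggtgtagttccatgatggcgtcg
Atp5k: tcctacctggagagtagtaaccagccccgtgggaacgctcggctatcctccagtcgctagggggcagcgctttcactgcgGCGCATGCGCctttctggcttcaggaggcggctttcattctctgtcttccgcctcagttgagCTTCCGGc
These windows lie at chr4:140961141-140961290 on the plus strand for Sdhb and, on the minus strand, at chr10:80406802-80406951 for Uqcr11, chr5:115348939-115349088 for Cox6a1 and chr5:108434380-108434529 for Atp5k. A promoter of 300 bases was found for 33 of the 44 members, and both strands were searched in each. The NRF1 letters stood in 18.2% of these members, against 4.3% of the 9346 tested features with a promoter and 1.95% of all 27025 genes. The ETS letters CCGGAAG were in 36.4% of the members, 20.8% of the tested features and 9.93% of all genes, and the YY1 letters AAGATGGCG in 9.09%, 3.77% and 1.64%. The core letters of the HIF motif, ACGTG, were in 30.3% of the members and 29.6% of the tested features. The letters CCAAT were in 57.6% of the members and 43.4% of the tested features, and TATAAA in 3.03% and 8.55%. A match is a description of letters, not a bound site.

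The microRNA in whose gene the lox sites are named is miR-210. Its mature 3p strand is shown with the seed, bases 2 to 8, in capitals.
miR-210-3p: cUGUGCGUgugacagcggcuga
The complement of the seed, ACGCACA, was in the 3′ UTR of 0 of 43 members with an annotated 3′ UTR, against 443 of 15115 transcripts (2.93%). At that share few sites are to be expected among 43 members, and 3′ UTR lengths were not matched, so the 0 is not read as a lack of sites. The row of Mir210 itself was at 1, the lowest value of the table, in all 8 libraries, so it checks neither the genotype nor the induction of the microRNA.

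Values are read counts as normalised by the authors, deposited as whole numbers of at least 1. The spacing of low values put 1 read at 0.660 to 1.384 of these units and the depth at an estimated 6.25 M to 12 M reads per library. Genes of the low-oxygen response checked the oxygen labels: 7 of 7 (Slc16a3, Egln3, Car9, Bnip3, Pdk1, Ankrd37 and Ak4) rose in both genotypes past the threshold used below. These genes were listed with earlier results of these data known and are the same 7 features that were called in KO hypoxia, so their direction is not independent evidence. Fibroblast markers summed to 66921 to 91568 per library, and the summed markers of leukocytes, endothelium, keratinocytes, adipocytes and Schwann cells or melanocytes each to at most 95. The RNA came from whole cultures, where fewer cells expressing a gene and less RNA per cell cannot be told apart.

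A pair of libraries stood apart in the members. WT hypoxia replicate 2 held the highest value of 19 of the 40 tested members and KO normoxia replicate 1 that of 16, whereas KO hypoxia replicate 2 held the lowest value of 12. The first set had the shorter transcripts, with a median of 618 bases and 49.9% GC, and the second the longer ones, with 1186 bases and 53.7% GC. Over all tested features, the deviation of a gene from its own mean changed by 0.32 (log2) per 10 points of GC in KO normoxia replicate 1, the steepest such slope, and by -0.17 in WT hypoxia replicate 2. Per doubling of transcript length it changed by -0.16 and -0.15 in these libraries, compared with slopes of 0.15 and 0.13 in the second KO normoxia and the second KO hypoxia library. Values without these libraries or with these trends removed are given below for part of the results that turn on them. The trends were fitted over all tested features of a library. Their removal would therefore also take out a true change shared by transcripts of like length or GC. What part the trends have in the results was not tested.

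**Figure D1:**
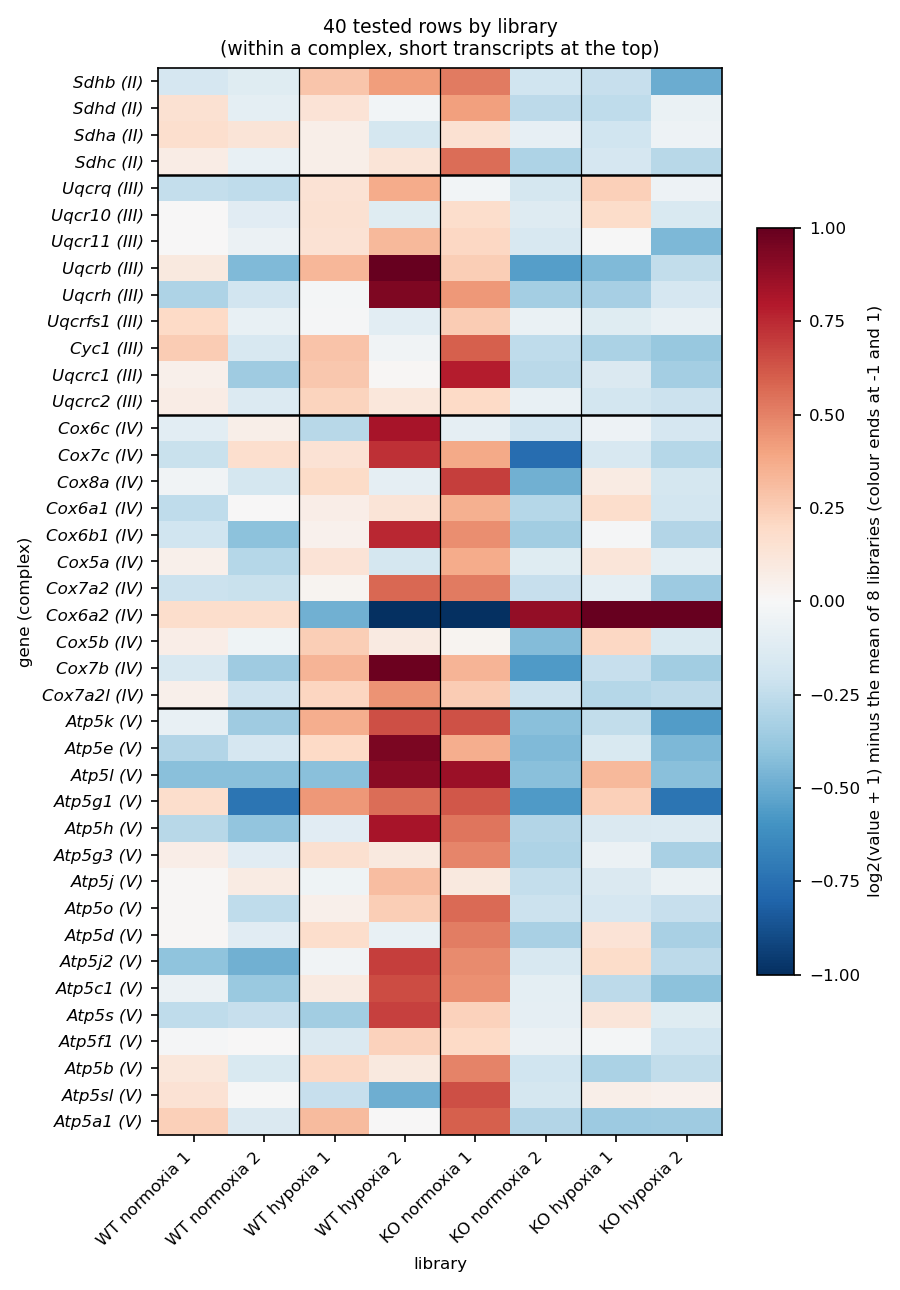
Deviation of log2(value + 1) from the mean of the 8 libraries (colour, red higher and blue lower) for the 40 tested members (rows, by complex and with short transcripts at the top of each block) in each library (columns). The reddest columns are WT hypoxia 2, mainly in short transcripts, and KO normoxia 1; the other KO columns are mostly blue, with Cox6a2 as the opposite.

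Complex V rows dominated the signal. The members together made up 0.564% to 0.931% of a library's total, lowest in KO hypoxia replicate 1 and highest in KO normoxia replicate 1. Complex V took 60.1% to 64% of the members' total, complex III 14.2% to 15.2%, complex IV 10.5% to 14.4% and complex II 9.95% to 12.3%. The catalytic F1 subunits alpha and beta, Atp5a1 and Atp5b, alone made up 40.6% to 47.9%. Divided by transcript length, the median level of the tested members was 1013 per kb in complex II and 890 per kb in complex III, with ranges of 328 to 1224 and 187 to 2292. In complex IV the median was 1037 per kb, with a range of 17.8 (Cox6a2) to 2014 (Cox6b1), and in complex V it was 881 per kb, with a range of 26.7 (Atp5sl) to 9030 (Atp5b).

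**Figure D2:**
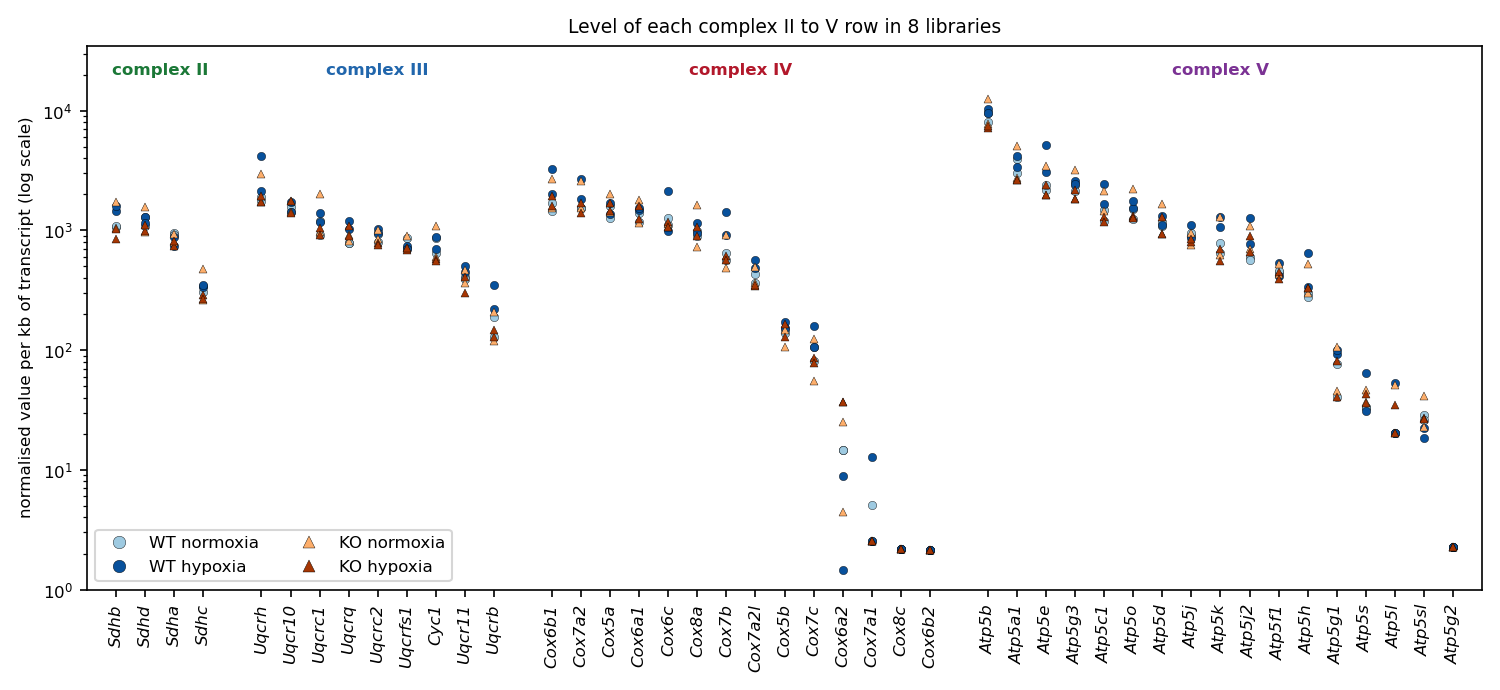
Normalised value per kb of transcript (log axis) of all 44 members in each of the 8 libraries, with circles for WT, triangles for KO, light symbols for normoxia and dark ones for hypoxia. Atp5b is the highest row, the 8 libraries of most rows lie close together, and Cox6a2, Cox7a1, Cox8c, Cox6b2 and Atp5g2 lie below 40.

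Of the 44 members, 40 reached a value of 10 in at least 2 libraries and were tested: 4, 9, 11 and 16 in complexes II to V. The other 4 were Cox7a1, Cox8c, Cox6b2 and Atp5g2. No member was called in any of the 5 comparisons by limma at an adjusted p of 0.05, adjusted over all 12107 tested features. In WT hypoxia against normoxia 0.107% of all tested features were called (13), in KO hypoxia against normoxia 0.0578% (7), and in KO against WT in normoxia, KO against WT in hypoxia and the difference of the responses 0%. At an unadjusted p under 0.05, these comparisons held 5, 0, 0, 8 and 7 of the 40 members, beside 6.33%, 3.2%, 3%, 7.52% and 3.14% of all tested features. Between groups, the standard error of a member's log2 fold change had a median of 0.30, beside a median WT hypoxia value of the members of 0.27.

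Complex II had the narrowest range of levels per length. Sdha, the flavoprotein that oxidises succinate, was at 2740 and 2663 in WT normoxia, 2542 and 2159 in WT hypoxia, 2718 and 2306 in KO normoxia and 2131 and 2359 in KO hypoxia. Both WT hypoxia libraries lay below both WT normoxia ones, by 0.21 on the log2 scale (log2 fold change -0.21 ± 0.22 SE, adjusted p = 0.899, limma). Sdhb, the iron-sulfur subunit, was at 1210 and 1252, 1650 and 1813, 1952 and 1185, and 1162 and 962 in the same order of groups. Its WT groups did not overlap and its KO hypoxia libraries lay below both normoxia ones; it had the highest WT value of the complex (0.49 ± 0.26, adjusted p = 0.803) and the lowest KO value (-0.52 ± 0.26, adjusted p = 0.916; -0.16 without KO normoxia replicate 1). The membrane anchors are Sdhc and Sdhd. Sdhc was at 1078 and 973, 1068 and 1117, 1509 and 828, and 912 and 846. Sdhd was at 1601 and 1340, 1578 and 1414, 1915 and 1201, and 1206 and 1375. In both anchors KO normoxia replicate 1 was the highest of all 8 libraries and the other KO normoxia library was the lowest.

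In complex III the core subunits and the small supernumerary ones were set side by side, with no test between them. The core subunits are Cyc1 (cytochrome c1), Uqcrfs1 (the Rieske iron-sulfur protein), Uqcrc1 and Uqcrc2; their median log2 fold change in WT hypoxia was 0.14, against 0.50 for the 5 supernumerary subunits. This order did not hold with the length trend removed (0.04 and -0.16) or without WT hypoxia replicate 2 (0.25 and 0.23). Cyc1 was at 1308 and 979 in WT normoxia, 1337 and 1069 in WT hypoxia, 1660 and 918 in KO normoxia and 879 and 841 in KO hypoxia. Its KO hypoxia libraries were its lowest values (KO log2 fold change -0.52 ± 0.30, adjusted p = 0.916), and the fold change was -0.09 without KO normoxia replicate 1. Uqcrfs1 was at 1172 and 972, 1013 and 951, 1222 and 976, and 940 and 974, with overlapping WT groups and the lowest WT value of the complex (-0.12 ± 0.22, adjusted p = 0.951). Uqcrh, the hinge protein and the highest member of the complex per length, was at 966 and 1043, 1176 and 2280, 1617 and 941, and 946 and 1061. A single library, WT hypoxia replicate 2, stood above all others in it. Uqcrb, the lowest of the complex per length, was at 101 and 69, 119 and 189, 112 and 64, and 69 and 79, with the largest WT value of the complex (0.84 ± 0.36, adjusted p = 0.784). It was 0.29 with the length trend removed. Uqcrq was at 318 and 315, 415 and 486, 368 and 332, and 442 and 362, the only member of complex III whose KO log2 fold change lay above 0 (0.19 ± 0.22, adjusted p = 0.921). Uqcr10 was nearly flat, at 676 and 623, 749 and 620, 762 and 615, and 766 and 608. The other members, Uqcrc1, Uqcrc2 and Uqcr11, had WT log2 fold changes of 0.19 to 0.30 and KO values of -0.50 to -0.25; without KO normoxia replicate 1 the KO values were -0.13 to 0.02.

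Complex IV held the members with the highest and the lowest log2 fold change in WT hypoxia. Cox6b1 faces the intermembrane space and was the highest per length, at 1042 and 902 in WT normoxia, 1232 and 2017 in WT hypoxia, 1652 and 943 in KO normoxia and 1191 and 979 in KO hypoxia. Cox7b was at 644 and 562, 914 and 1424, 914 and 485, and 613 and 566. Both WT hypoxia libraries of Cox7b lay above both WT normoxia ones, and its WT log2 fold change of 0.92 ± 0.32 (adjusted p = 0.767) was the highest of all members; it was 0.65 once the length trend was taken out and 0.60 when WT hypoxia replicate 2 was left out. Cox7a2 was at 1023 and 1016, 1210 and 1772, 1706 and 1011, and 1112 and 922, the lowest KO value of the complex (-0.37 ± 0.29, adjusted p = 0.916). That value rested on KO normoxia replicate 1 and was 0.00 without it. Cox7a2l, a factor known to join complexes III and IV rather than a subunit of the enzyme, was at 466 and 389, 523 and 614, 537 and 388, and 368 and 374. The ubiquitous form of subunit 6a, Cox6a1, was at 670 and 803, 839 and 875, 1025 and 656, and 904 and 705. The ubiquitous form of subunit 8, Cox8a, was at 541 and 493, 633 and 521, 898 and 397, and 588 and 493. In both, the first KO normoxia library was the highest and the second the lowest. The remaining Cox5a, Cox5b, Cox6c and Cox7c had WT log2 fold changes of 0.10 to 0.46 and KO values of -0.11 to 0.23.

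The forms of complex IV known from muscle and testis were near the bottom of the table. Cox6a2, the heart and muscle form of subunit 6a, was at 10 and 10 in WT normoxia, 6 and 1 in WT hypoxia, 3 and 17 in KO normoxia and 25 and 25 in KO hypoxia. Both KO hypoxia libraries were above all others, and the fitted log2 differences were the extremes of all members: -1.56 ± 0.80 in WT hypoxia (adjusted p = 0.80; -0.65 without WT hypoxia replicate 2), 1.62 ± 0.80 in KO hypoxia (adjusted p = 0.916; 0.53 without KO normoxia replicate 1) and 2.80 ± 0.80 between KO and WT in hypoxia (adjusted p = 0.641). At values this low a few reads make the difference, and the fitted values depend on the added 1. Cox7a1, the other muscle form, was at 1 to 5 and was not tested. Of the testis forms, Cox6b2 and Cox8c were at 1 in all 8 libraries. Cox7b2 and Cox8b are not analysed here. Muscle markers summed to 451 to 1034 per library, nearly all from Acta1 (401 to 977). Tnnt2 was at 19 to 35, Actc1 at 11 to 25 and Tnnt3 at 1 to 3, while Myl1 and Myh6 were at 1 throughout and Mb at 1 to 2. Their part in the Cox6a2 values was not tested.

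Complex V was led by its catalytic head. Atp5b, the beta subunit, was at 18383 and 15350 in WT normoxia, 19693 and 18216 in WT hypoxia, 23967 and 14803 in KO normoxia and 13662 and 14340 in KO hypoxia. Atp5a1, the alpha subunit, was at 9829 and 7502, 10353 and 8321, 12550 and 6799, and 6453 and 6508. In both, KO normoxia replicate 1 was the highest and both KO hypoxia libraries were below both of KO normoxia. Neither passed the test (KO log2 fold change of Atp5b -0.43 ± 0.30, of Atp5a1 -0.51 ± 0.32, adjusted p = 0.916 for both). Without KO normoxia replicate 1 these values were -0.08 and -0.07. Atp5c1, the gamma subunit of the rotor, was at 1735 and 1395, 1927 and 2835, 2486 and 1690, and 1508 and 1359. Its WT groups and its KO groups did not overlap, with the lowest KO value of the complex (-0.52 ± 0.28, adjusted p = 0.916; -0.24 without KO normoxia replicate 1). Atp5e, the epsilon subunit, was at 917 and 1002, 1290 and 2154, 1443 and 829, and 1012 and 825, and had the highest WT value of the complex (0.80 ± 0.32, adjusted p = 0.784). That value was 0.15 with the length trend removed. Atp5j, of the peripheral stalk, had the KO value closest to 0 in the complex (-0.03 ± 0.23), at 727 and 762, 698 and 895, 770 and 610, and 652 and 689. Atp5sl, which carries a name of the family but is not an established subunit, was the lowest tested row of the complex per length, at 69 and 62, 53 and 44, 98 and 55, and 65 and 64, and had the only WT log2 fold change of the complex below 0 (-0.43 ± 0.33, adjusted p = 0.855). Atp5s is likewise not an established subunit, and both rows are counted with complex V throughout.

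The F1 head and the membrane part with its stalk were likewise described apart. The 5 F1 genes (Atp5a1, Atp5b, Atp5c1, Atp5d, Atp5e) had a median WT log2 fold change of 0.17 and a KO median of -0.43. The 9 tested genes of the Fo part and peripheral stalk had medians of 0.66 and -0.27. With the length trend removed the WT medians were 0.10 (F1) and 0.02 (Fo and stalk), and without WT hypoxia replicate 2 they were 0.27 and 0.19, so the order turned. As deposited all 14 lay above 0 in WT and below 0 in KO. With the length trend removed 9 of 14 lay above 0 in WT and 13 of 14 below 0 in KO. Without WT hypoxia replicate 2, 11 of 14 lay above 0 in WT. Without KO normoxia replicate 1 only 4 of 14 lay below 0 in KO. Atp5k, of the membrane part and with a transcript of 371 bases, was at 290 and 239, 393 and 479, 476 and 229, and 258 and 207. Its WT value of 0.72 ± 0.33 (adjusted p = 0.788) was 0.02 with the length trend removed.

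Rows of the c subunit spanned the table. Atp5g3 was at 1707 and 1509 in WT normoxia, 1828 and 1747 in WT hypoxia, 2289 and 1317 in KO normoxia and 1565 and 1303 in KO hypoxia. Atp5g1 was at 46 and 24, 55 and 60, 63 and 27, and 48 and 24. Atp5g2 was at 1 in all 8 libraries. This order follows the share of each transcript's 50-base windows that another annotated gene also holds: 0% for Atp5g3, 66% for Atp5g1 and 100% for Atp5g2, whose pseudogenes are shown above. The shares are of 1 transcript per gene, of 714, 596 and 441 bases in this order, and another transcript could give another share. Among the other members, Atp5l shared 84.8% (a value of 11 to 29), Cox7c 53% (30 to 86), Atp5h 50.5% (173 to 404) and Uqcrb 43.4% (64 to 189). Each of these rows lay below the median of its complex per length. Atp5o and Cox5a, with 34% and 32% shared, did not, at 1515 and 1559 per kb. Across the 40 tested members, level per kb and shared windows had a Spearman correlation of -0.33 and, with the level as log2, a Pearson correlation of -0.45; across the 36 subunits of complex I these were -0.36 and -0.54. These are descriptions across genes, which are not independent replicates. Not every low row was shared: Cox6a2 shared 3.33% and Atp5s, Atp5sl, Cox7a1, Cox8c and Cox6b2 0%. How reads that match several places were counted is not given in the sources used here, so the values of rows with many shared windows are uncertain as levels, and the part of shared sequence in the low values was not tested.

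**Figure D3:**
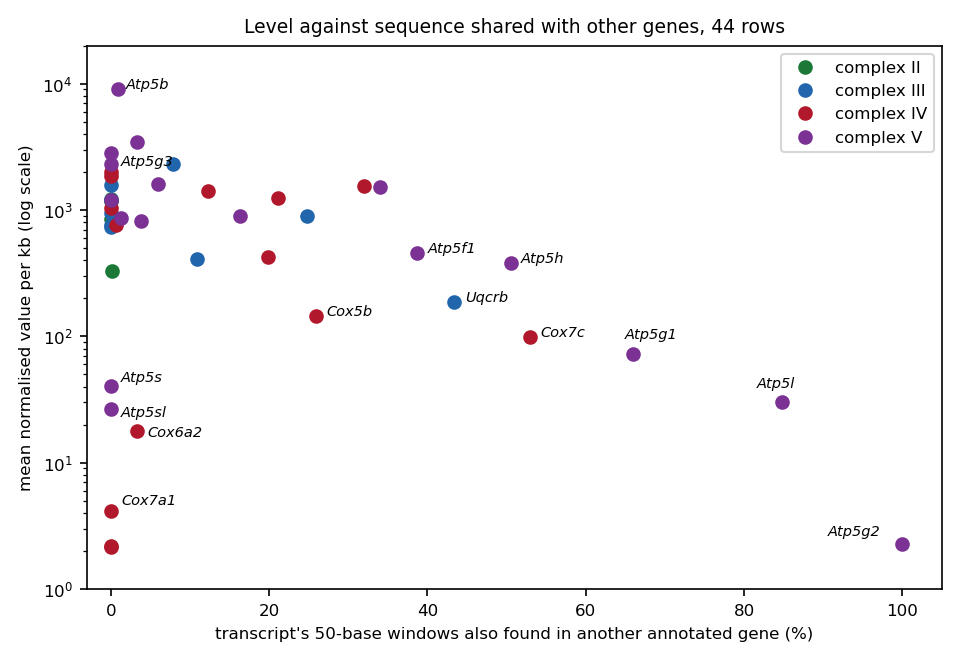
Mean normalised value per kb over the 8 libraries (log axis) against the share of the transcript's 50-base windows found in another annotated gene, 1 point per member coloured by complex. From Atp5h (50.5% shared) to Atp5g2 (100%) the level drops from 381 to 2.27 per kb, and rows with 0% shared span the range from 2.15 to 2812.

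The complexes were then compared with each other. In WT hypoxia against normoxia the median log2 fold change was 0.06 in complex II, 0.26 in complex III, 0.30 in complex IV and 0.34 in complex V, beside -0.02 over all tested features. Values lay above 0 for 3 of 4, 8 of 9, 10 of 11 and 15 of 16 members, beside 47.8% of all tested features. Both WT hypoxia libraries exceeded both WT normoxia ones in 20 of the 40 members, against 18.9% of all tested features, and were below both in 3, against 19.9%. In KO hypoxia against normoxia the medians were -0.29, -0.25, -0.11 and -0.26, beside 0.01, and values lay below 0 for 4 of 4, 8 of 9, 8 of 11 and 16 of 16. Both KO hypoxia libraries were below both KO normoxia ones in 8 of 40 members, against 16.3% of all tested features, and above both in 1, against 15.9%. The replicate spread of a complex median, pooled over the 4 groups, was 0.26, 0.17, 0.26 and 0.32 (SD, log2) in complexes II to V. This pooled spread was above the size of the WT median in complex II and of the KO median in complexes IV and V. It was below that of the other 5 medians, but the pairs were unequal. The 2 KO normoxia libraries had median deviations of 0.47 and -0.23 in complex II and 0.25 and -0.18 in complex III. In complexes IV and V they had 0.36 and -0.29, and 0.50 and -0.27. The pooled spread therefore does not show that a KO median exceeds the spread of its KO normoxia pair. The subunits of complex I, outside the rule, had medians of 0.38 and -0.20.

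**Figure D4:**
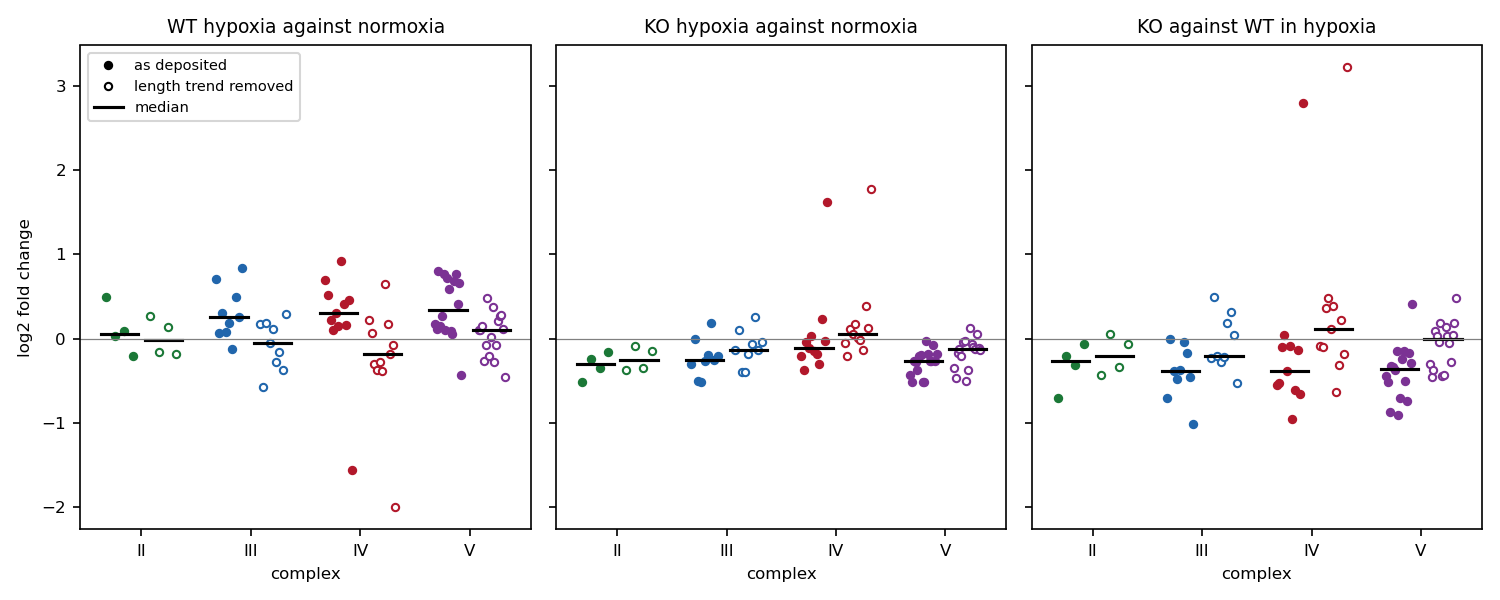
Log2 fold change of each tested member by complex in 3 comparisons, as deposited (filled) and with each library's trend with transcript length removed (open); bars are medians. As deposited the WT medians lie at 0.06 to 0.34 and the KO medians at -0.29 to -0.11; with the trend removed the WT medians lie at -0.18 to 0.10.

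The KO hypoxia medians depended on single libraries, and the medians of both genotypes moved with the length trend removed. In WT hypoxia 30 to 37 of 40 members lay above 0 when single libraries were left out (31 without WT hypoxia replicate 2). Without KO normoxia replicate 1 the KO hypoxia medians of complexes II to V were 0.02, 0.02, 0.28 and 0.12, and 29 of 40 members lay above 0 in place of 4. Without KO normoxia replicate 2 they were -0.68, -0.43, -0.53 and -0.68. In that setting limma called 4 members, all lower in KO hypoxia: Sdhb, Sdhc, Uqcrc1 and Atp5k, among 760 called features (6.28% of all tested features; 1.64% were called lower). KO normoxia is then the single library that stood apart, and its spread is assumed to be that of the other groups. With the length trend removed the WT hypoxia medians of complexes II to V were -0.01, -0.05, -0.18 and 0.10 and 20 of 40 members lay above 0. The KO hypoxia medians then were -0.25, -0.13, 0.05 and -0.12, with complex II the lowest and complex IV above 0. With GC and length trends both removed the KO values were -0.24, -0.13, 0.07 and -0.09.

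**Figure D5:**
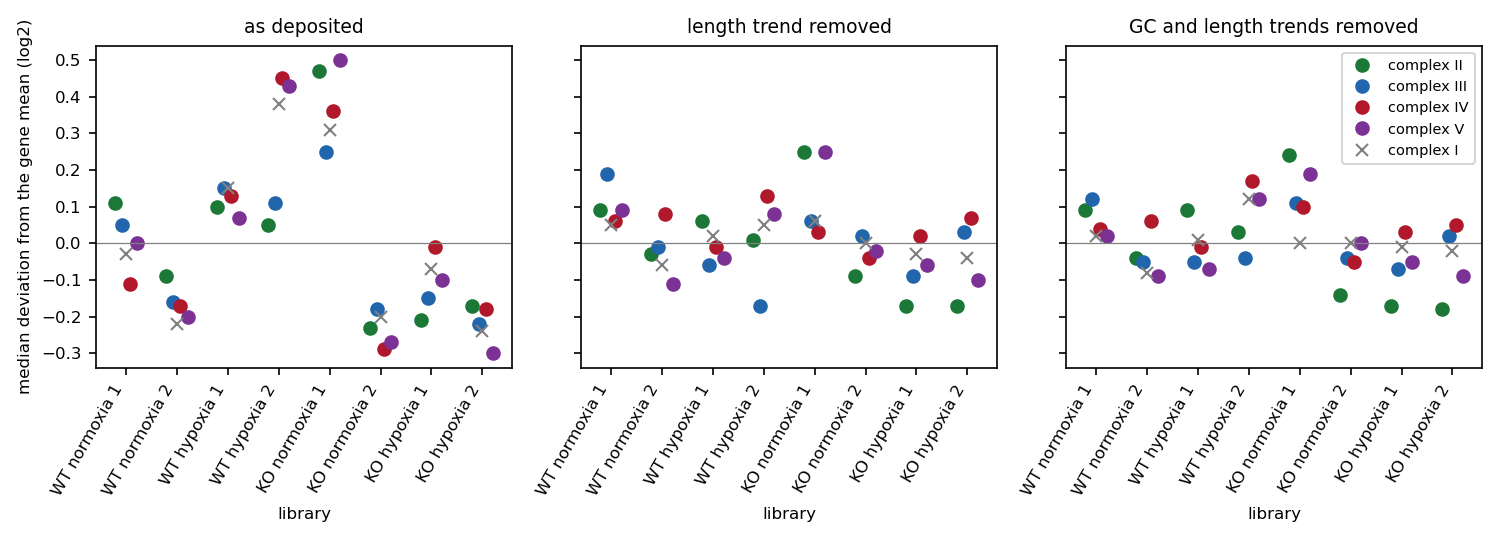
Median deviation of each complex from the gene means (log2) in each library, as deposited and after removal of each library's trends with transcript length or with GC and length; crosses are the subunits of complex I. As deposited WT hypoxia 2 and KO normoxia 1 reach 0.45 and 0.50, and with both trends removed all medians lie between -0.18 and 0.24.

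As deposited, the medians between genotypes lay nearer 0 in normoxia than in hypoxia, but the normoxia medians rested on KO normoxia replicate 1. In normoxia the KO medians relative to WT were 0.09, 0.09, 0.15 and 0.24 in complexes II to V. Without KO normoxia replicate 1 they were -0.26, -0.11, -0.16 and -0.19, and 7 of 40 members lay above 0 in place of 34. Both KO libraries exceeded both WT ones in 3 of 40 members, against 10% of all tested features, and were below both in 0, against 11%. In hypoxia the medians were -0.26, -0.38, -0.38 and -0.36, beside -0.01 over all tested features, and 36 of 40 members lay below 0. Both KO hypoxia libraries were below both WT hypoxia ones in 24 of 40 members, against 24.5% of all tested features, and above both in 2, against 26.2%. This comparison shares its WT libraries with the WT hypoxia comparison and its KO libraries with the KO one, so the values are not independent of those above. Uqcrb (-1.01 ± 0.36), Cox7b (-0.95 ± 0.32), Atp5k (-0.91 ± 0.33), Atp5e (-0.87 ± 0.32), Sdhb (-0.71 ± 0.26), Atp5c1 (-0.71 ± 0.28) and Cox7a2l (-0.61 ± 0.24) were the lowest with an unadjusted p under 0.05, all at an adjusted p of 0.641 by limma. All of these genes except Sdhb had their highest value in WT hypoxia replicate 2, a library of this comparison that stood apart. With the length trend removed the hypoxia medians were -0.20, -0.21, 0.11 and -0.01, and 19 of 40 members lay above 0. In normoxia 24 of 40 members then lay above 0. The 14 tested F1, Fo and stalk genes of complex V then had medians of 0.11 in normoxia and -0.04 in hypoxia. As deposited, 3 to 9 of 40 members lay above 0 in hypoxia when single libraries were left out. The response of KO cells minus that of WT cells had medians of -0.35, -0.51, -0.30 and -0.63, and no member passed the test (lowest adjusted p = 0.857, limma). Without KO normoxia replicate 1, 13 of 40 members had a difference above 0, in place of 4.

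Genes of the respiratory chain outside the naming rule were looked at beside the members. Cox4i1, a nuclear subunit of complex IV, was at 4524 and 3458 in WT normoxia, 5810 and 6835 in WT hypoxia, 7415 and 3696 in KO normoxia and 4386 and 3641 in KO hypoxia, with WT and KO log2 fold changes of 0.67 ± 0.33 and -0.39 ± 0.33 (adjusted p = 0.80 and 0.916). Ndufa4l2, a paralogue of Ndufa4 known as a HIF target, was at 4 and 1, 23 and 102, 3 and 1, and 35 and 23. Every hypoxia library of Ndufa4l2 lay above every normoxia library, by 3.97 ± 0.78 in WT and 3.38 ± 0.78 in KO, but neither passed the test (adjusted p = 0.210 and 0.396). Ndufa4 itself was at 1196 and 951, 1332 and 2183, 1702 and 1082, and 1283 and 1079. Both its WT hypoxia libraries lay above both WT normoxia ones (0.68 ± 0.31, adjusted p = 0.784), and its KO groups overlapped (-0.21 ± 0.31, adjusted p = 0.931). With Usmg5 and 2010107E04Rik, subunits outside the rule lay above 0 in WT hypoxia for 5 of 5 genes (median 0.82). In KO hypoxia 4 of the 5 lay below 0 (median -0.30), and none was called. WT hypoxia replicate 2 held the highest value of Ndufa4, Ndufa4l2, Usmg5 (231) and 2010107E04Rik (1639), and KO normoxia replicate 1 that of Cox4i1. For these genes, values without those libraries or with the trends removed are not given here. Of the assembly factors, 0 of 3 tested for complex II, 0 of 4 for complex III, 0 of 20 for complex IV and 0 of 3 for complex V (its inhibitor Atpif1 included) were called in any of the 5 comparisons. Their medians in WT hypoxia were 0.22, -0.21, 0.14 and -0.02. Pet100, a small complex IV assembly factor, had the largest WT value among those of complex IV, at 181 and 145 in normoxia and 253 and 518 in hypoxia (1.16 ± 0.38, adjusted p = 0.767). Its highest value of the 8 libraries was also in WT hypoxia replicate 2. Of 11 tested genes for the transcription of respiratory and mitochondrial genes, among them Nrf1, Gabpa, Esrra and Tfam, none was called in any comparison, with medians of -0.05 in WT and 0.03 in KO hypoxia.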

How the data were processed

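RNA was measured in 8 libraries, 2 per group. Per the labels' protocols, total RNA was extracted with a miRNeasy kit, and the libraries came from a New England Biolabs small RNA set made for the SOLiD sequencer. The deposited values are treated as a score: per the table's name the authors normalised read counts, and every value is a whole number of at least 1. No label, header or note used here gives the aligner, counting, strand, build or normalization method, so overlapping, antisense and copied genes are uncertain. The number of unused sample columns was 0.

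Depth is an estimate from the spacing of low values. The tested features (12107) reached 10 in 2 or more libraries, and 4984 did not. They were tested on log2(value + 1), which understates changes of low genes; limma was used and not a count model because the values are normalised. limma 3.58.1 (R 4.3.3, intensity trend, 10.2 degrees of freedom) was fitted to the 4 groups, with Benjamini-Hochberg adjustment over all tested features, two-sided, at 0.05. Every adjusted p is from limma. The fit and the depth estimate were checked on simulated data.

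Members, lists and the naming rule were chosen with earlier results of these data known. Values in all 8 libraries are given for any called member, the 2 highest and the lowest tested member of each complex per length, the highest and lowest hypoxia responses of each complex, the Sdh genes, the isoform sets, the c subunit genes, Cyc1 and Uqcrfs1. Lengths, GC and shared windows came from 1 transcript per gene in GENCODE vM21 (APPRIS principal first, then CCDS, then support level, then the shortest); all 44 members matched. Python 3.11.15 was used, with pandas 2.3.3, scipy 1.17.1 and matplotlib 3.10.9. Alternatives were other pseudocounts, filters and scalings, a replicate block, leaving out each library, fits to the compared groups only, no intensity trend and removal of each library's trend with length; leaving out 2 libraries at once and removing GC with length were added after seeing the data.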

Additional observations from a re-analysis of the deposited data

How the results depend on the processing

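No member was called under any alternative except without KO normoxia replicate 2, as given above. The number of called features in WT hypoxia (13) was 28 with no filter, 20 with the length trend removed, 29 with GC and length trends removed, 7 with only the groups compared, 6 without both libraries that stood apart, and 1 to 20 when leaving out single libraries (1 without WT hypoxia replicate 2). In KO hypoxia (7) it was 11 with the replicate block, 11 with length and 14 with GC and length removed, 2 with only the groups compared, and 4 to 760 when leaving out single libraries (760 without KO normoxia replicate 2). The 3 comparisons with 0 calls had 19 (KO against WT in normoxia), 14 (in hypoxia) and 29 (difference of responses) with no filter. The difference of replicate 1 from replicate 2 correlated at 0.57 between the WT groups, 0.23 between the KO groups and -0.11 to 0.11 across genotypes (Pearson). The numbers were therefore not taken to pair libraries across genotypes. Within WT they may mark libraries that belong together, which the main fit leaves out. The replicate block, 1 term common to both genotypes, called 0 members, and a pairing within each genotype was not fitted. Leaving out single libraries, the KO hypoxia medians ran from -0.68 to 0.02 (complex II), -0.43 to 0.02 (III), -0.53 to 0.28 (IV) and -0.68 to 0.12 (V); the KO against WT medians in normoxia from -0.26 to 0.47, -0.11 to 0.23, -0.16 to 0.48 and -0.19 to 0.58; the difference of responses from -0.74 to 0.03 (II) and -0.89 to 0.03 (IV); the WT hypoxia median of complex III from 0.09 to 0.30; and the KO against WT median of complex IV in hypoxia from -0.73 to -0.22. Without both libraries that stood apart, the KO hypoxia medians were 0.02, 0.02, 0.28 and 0.12 and the normoxia medians of KO against WT -0.26, -0.11, -0.16 and -0.19; the difference of responses was -0.24 (III), 0.09 (IV) and -0.11 (V). With the length trend removed, WT hypoxia was -0.05 (III) and -0.18 (IV), KO against WT in hypoxia -0.21 (III), 0.11 (IV) and -0.01 (V), and the difference 0.39 (IV). With GC and length trends removed, WT hypoxia was 0.02 (III) and -0.13 (IV), KO against WT in hypoxia -0.20 (III) and 0.08 (IV), and the difference -0.26 (III) and 0.35 (IV). Of single members, Uqcrfs1 in WT ran from -0.26 to 0.01, and in KO Sdhb from -0.88 to -0.16, Cox7a2 from -0.75 to 0.00 and Atp5j from -0.20 to 0.14 over the libraries left out; without both libraries Cox7a2 was 0.00 and Atp5j 0.14, and Atp5j was 0.13 with length and 0.21 with GC and length removed. The cause was not tested. With 2 libraries a group and estimated depths that differ between libraries, values near 10 rest on few reads.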

Other observations

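Gm10767, annotated as protein-coding, which shares windows with Uqcrb and was chosen after its values were seen, was at 5 to 24, highest in WT hypoxia replicate 2 as was Uqcrb. Gm10012, a partner of Cox7c, was at 1 in all 8 libraries. The coactivators Ppargc1a and Ppargc1b, known as drivers of mitochondrial biogenesis, were at 1 to 7 and 1 to 5 in all libraries, below the level needed for a test. Cycs, somatic cytochrome c, was at 38 to 64.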
